A study of Mus musculus with 4 samples.

Results

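The collagen genes were taken as all probe sets of the array that its annotation assigns to exactly 1 gene with a symbol made of Col, a number, the letter a and a number. The rule gave 42 genes with 82 probe sets, out of 18193 genes with such a probe set and 45037 probe sets that were not controls. By the chains they encode, 11 of the genes were fibrillar, 6 basement membrane (the Col4 genes), 5 beaded (the Col6 genes) and 20 other collagens. RefSeq lists 44 collagen genes for the mouse build GRCm38.p6, and *Col28a1* and *Col6a6* were not listed with 1 symbol on the array and were not analysed here.

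Expression was measured in liver tissue outside the tumours of male mice, after a chemical protocol that causes liver cancer, with 1 array for each of 2 WT and 2 *G9a*ΔHep mice. The control mice were labelled WT, and *G9a*ΔHep mice, labelled G9aKO, came from crosses of *G9a*flox/flox mice with *Alb*-Cre mice. Cre is driven there by the albumin promoter, which is active mainly in hepatocytes, and the gene targeted is *Ehmt2*, which encodes G9a, a histone methyltransferase that marks silent chromatin. By immunoblot the paper found G9a deleted in isolated hepatocytes of these mice. It found residual G9a in whole liver and ascribed this, as probable, to other cells. How far the other cells of the liver kept G9a was not tested on these arrays. All 4 mice, controls included, were given 25 mg/kg of the carcinogen DEN at 15 days of age, later 22 weekly injections of 0.5 ml/kg of the liver toxin CCl4, and were sampled at 30 weeks of age on a background backcrossed to C57BL/6.

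Each value is a MAS5 signal, an intensity on a linear scale that was scaled within each array, with a call of Present, Marginal or Absent for whether the probe set was detected. The share of Present probe sets was 41.3% to 43.9% over the 4 arrays, and the 95% quantile of Absent signals was 170 to 181, so that differences between signals under that level are uncertain. *Ehmt2* had signals of 640 and 492 (Present) on the WT arrays against 174 and 164 (Absent) on the *G9a*ΔHep arrays at 1 probe set, and its other probe set was Absent on all 4 arrays. Whether these probes lie within the deleted part of the gene was not examined. Of the hepatocyte marker list, 10 of 12 genes were tested and their summed signal was 559102 and 541035 on the WT arrays against 558368 and 495758 on the *G9a*ΔHep arrays.

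Collagens are proteins of the extracellular matrix whose chains wind around each other into a stiff helix. Fibrillar collagens assemble into the cables that make up scar tissue, the Col4 chains build the mesh of basement membranes, and the Col6 chains form beaded filaments at the border of cells and matrix. In liver, hepatic stellate cells and portal fibroblasts are known as the main makers of fibrillar collagen after injury, and repeated CCl4 is a standard way to cause such scarring in mice.

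Of the 42 genes, 18 had a probe set called Present on at least 2 arrays and were tested, comprising 7 fibrillar, 3 basement membrane, 3 beaded and 5 other collagens. At the tested probe set, 11 of them were Present on all 4 arrays. The other 24 are named further on without a fold change. *Col5a2* and *Col4a5* rose in *G9a*ΔHep liver past the threshold, an adjusted p of 0.05 from limma over 10350 genes. These 2 calls among 18 tested collagens stand beside 0.319% of all tested genes called higher. Without the second *G9a*ΔHep array 3 collagens passed, and without the first, or without either WT array, 1 passed. No collagen fell, beside 0.0676% of all tested genes, and at an unadjusted limma p under 0.05 there were 3 collagens higher and 0 lower, beside 5.92% and 4.1% of all tested genes. By the methods' t-test 0 collagens passed after adjustment in either direction, while before adjustment 2 were higher and 0 lower at p under 0.05.

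**Figure D1:**
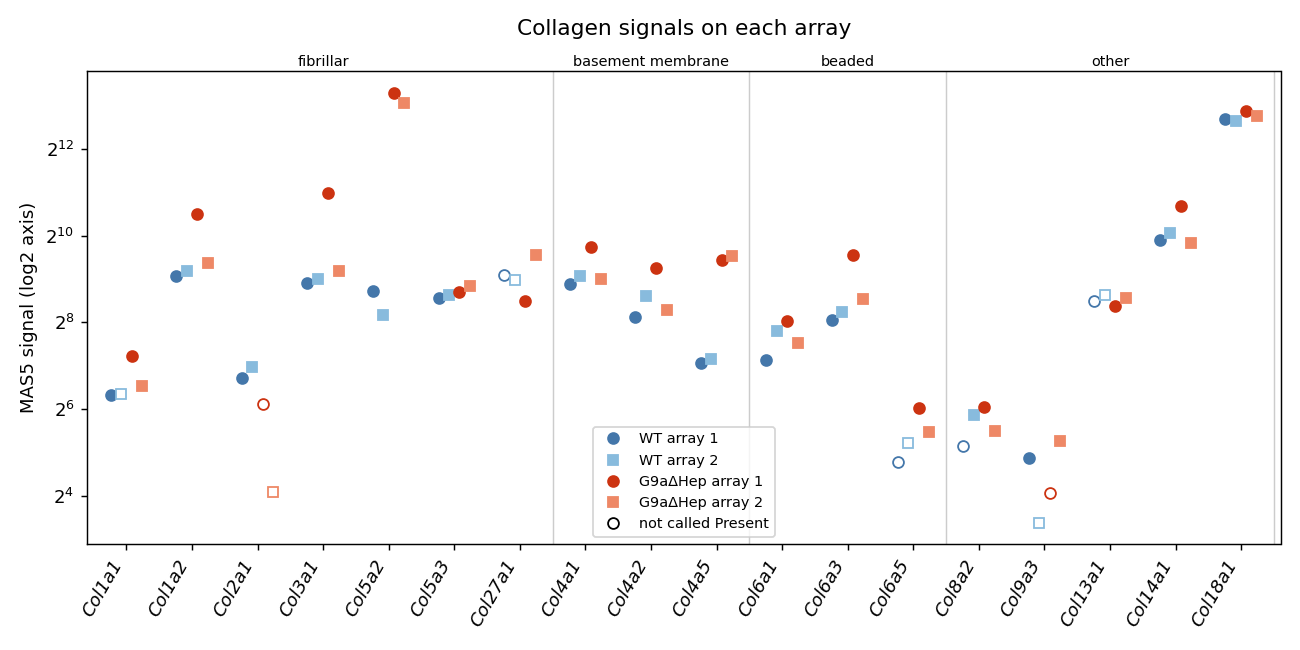
MAS5 signal (log2 axis) of the 18 tested collagen genes on each of the 4 arrays, by collagen group, with filled symbols for a Present call and open ones for Marginal or Absent. The WT and *G9a*ΔHep arrays lie farthest apart for *Col5a2*, while for *Col1a2*, *Col3a1* and *Col6a3* the first *G9a*ΔHep array stands above the other 3.

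The 2 genes that passed belong to different collagen groups and lie on different chromosomes, and each has a collagen gene as its direct neighbour. The 250 bases upstream of the start site are shown for *Col3a1*, which adjoins *Col5a2*, for *Col4a5* and for *Col4a6*, which adjoins *Col4a5*. *Col1a2*, which encodes a chain of type I collagen, is given for comparison. The sequences are RefSeq's for GRCm38.p6, whose table holds a promoter for 33 of the 42 genes. It holds none for *Col5a2*, so that *Col3a1* is shown without its neighbour. Capitals mark each match of 3 promoter motifs on either strand. These were TATAAA for the TATA box (TTTATA on the opposite strand), CCAAT for the CCAAT box (ATTGG on the opposite strand) and GGGCGG for the GC box (CCGCCC on the opposite strand), and no motif contains another. *Col3a1* is at chr1:45311288-45311537 on the plus strand, *Col4a5* at chrX:141475169-141475418 on the plus strand, *Col4a6* at chrX:141474077-141474326 on the minus strand and *Col1a2* at chr6:4505368-4505617 on the plus strand.
Col3a1: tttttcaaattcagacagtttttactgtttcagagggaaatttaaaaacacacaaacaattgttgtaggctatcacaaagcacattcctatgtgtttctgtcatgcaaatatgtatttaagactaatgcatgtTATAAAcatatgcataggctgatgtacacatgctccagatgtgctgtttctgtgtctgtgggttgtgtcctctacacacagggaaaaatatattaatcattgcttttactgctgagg
Col4a5: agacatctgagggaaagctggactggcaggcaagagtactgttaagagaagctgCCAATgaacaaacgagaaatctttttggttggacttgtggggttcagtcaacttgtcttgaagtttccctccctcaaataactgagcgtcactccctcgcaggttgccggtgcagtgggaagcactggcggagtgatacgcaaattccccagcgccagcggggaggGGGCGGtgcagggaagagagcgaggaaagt
Col4a6: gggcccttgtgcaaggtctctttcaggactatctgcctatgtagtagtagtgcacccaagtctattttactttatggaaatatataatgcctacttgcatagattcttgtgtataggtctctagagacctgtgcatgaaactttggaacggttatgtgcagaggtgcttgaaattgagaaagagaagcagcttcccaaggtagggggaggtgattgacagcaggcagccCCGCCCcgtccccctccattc
Col1a2: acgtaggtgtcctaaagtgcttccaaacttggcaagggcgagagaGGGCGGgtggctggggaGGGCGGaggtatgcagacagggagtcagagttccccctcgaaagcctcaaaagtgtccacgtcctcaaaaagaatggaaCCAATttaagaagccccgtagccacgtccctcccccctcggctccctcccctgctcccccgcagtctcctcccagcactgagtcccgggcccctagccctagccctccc
The *Col3a1* window held 1 TATA box and neither other motif, at a GC content of 35.2%. The *Col4a5* window held 1 CCAAT box and 1 GC box at 54.0% GC, and the *Col4a6* window 1 GC box at 47.6% GC. The *Col1a2* window held 1 CCAAT box and 2 GC boxes at 62.0% GC. Among the same 250 bases of 32851 promoters in the table, 12.4% held TATAAA, 33.8% CCAAT and 32.7% GGGCGG. These matches describe the letters of the windows only.

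Among the fibrillar collagens, *Col5a2* encodes a chain of type V collagen, which sits inside type I fibrils and limits their width. Its signals were 426 and 288 on the WT arrays against 10080 and 8555 on the *G9a*ΔHep arrays, with a Present call on all 4. Both *G9a*ΔHep arrays were far above both WT arrays, and the means were 357 ± 97.3 for WT and 9318 ± 1079 for *G9a*ΔHep liver (SD, n = 2 each). The log2 fold change was 4.73 (SE 0.22, adjusted p = 0.00485 from limma), which was the smallest p among the 10350 genes. In whole liver tissue, a change in the number of cells that express a gene and a change in RNA per cell cannot be told apart.

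The second *Col5a2* probe set, 1450625_at, gave signals of 118 (Present) and 57.9 (Absent) on the WT arrays against 920 and 790 (both Present) on the *G9a*ΔHep arrays. Again the groups did not overlap. Its log2 fold change was 3.37 (SE 0.36, adjusted p = 0.0299 from limma with each probe set tested on its own). Both probe sets for the gene thus passed. *Col5a2* passed in all 4 fits that left out 1 array.

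*Col3a1* is the neighbour of *Col5a2* and encodes type III collagen, which forms thin fibrils alongside type I collagen. It spans chr1:45311538-45349706 and *Col5a2* spans chr1:45374331-45503282 in GRCm38.p6, with 24624 bases and 0 annotated genes between them. *Col3a1* had signals of 481 and 514 on the WT arrays against 2029 and 585 on the *G9a*ΔHep arrays. The first *G9a*ΔHep array was well above the other 3, whereas the second was only just above both WT arrays. The log2 fold change was 1.13 (SE 0.54, adjusted p = 0.552 from limma). Without the second *G9a*ΔHep array it was 2.03 (adjusted p = 0.0198) and without the first 0.23, so that 1 array decided this value. Its second probe set, 1427884_at, had 59.2 and 40.8 against 136 and 48.9, with overlap and an adjusted p of 0.754.

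The change of *Col5a2* exceeded that of *Col3a1* by 3.60 on the log2 scale. Taken per array, the log2 ratio of the *Col5a2* signal to the *Col3a1* signal was -0.17 and -0.83 on the WT arrays against 2.31 and 3.87 on the *G9a*ΔHep arrays, so that the groups did not overlap. The exact two-sided permutation test gave p = 0.333, which is the smallest p that 2 arrays against 2 allow.

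Of the 10 tested genes on each side of *Col5a2* on chromosome 1, 0 passed limma's adjusted threshold. Among these 20 genes, 7 were higher and 5 lower without overlap of the arrays, beside 22.3% and 19.3% of all tested genes. Their median log2 fold change was 0.12, within a range from -0.59 for *Nabp1* to 2.0 for *Tmeff2*. The nearest on one side were *Col3a1* and *Gulp1* (log2 fold change -0.56, adjusted p = 0.756), and on the other *Wdr75* (0.24, adjusted p = 0.764) and *Slc40a1*, the iron exporter ferroportin (0.32, adjusted p = 0.491). Measured between the lower coordinates of the genes, and not between their start sites, *Gulp1* lies at -823 kb from *Col5a2*, *Wdr75* at 421 kb and *Slc40a1* at 534 kb.

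**Figure D2:**
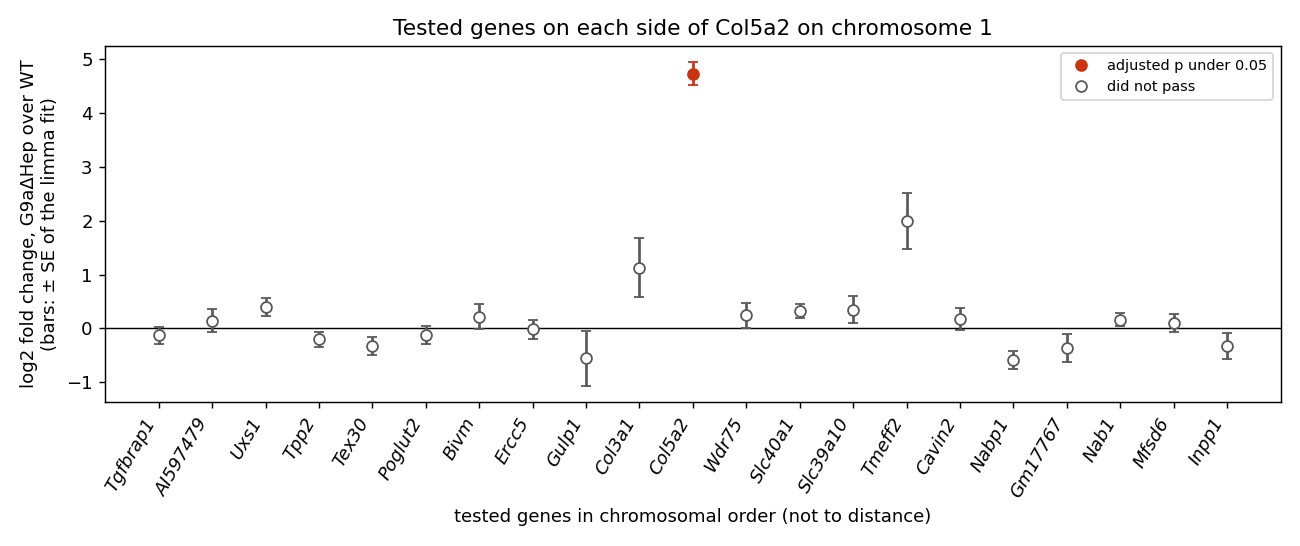
Log2 fold change (*G9a*ΔHep over WT, bars ± SE of the limma fit) of *Col5a2* and the 10 tested genes on each side of it, in chromosomal order and not to distance. *Col5a2* at 4.73 is the filled point that passed the test, and the 20 others, drawn open, range from -0.59 to 2.0.

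Type I collagen, the main component of scar, is made of the chains of *Col1a1* and *Col1a2*. *Col1a2* had signals of 537 and 580 on the WT arrays against 1443 and 659 on the *G9a*ΔHep arrays. The first *G9a*ΔHep array was again the high one, with the second slightly above WT, and the log2 fold change was 0.80 (SE 0.36, adjusted p = 0.536). It was 1.37 without the second *G9a*ΔHep array and 0.24 without the first. A second *Col1a2* probe set, 1423110_at, had 73.4 (Present) and 56.0 (Absent) in WT against 240 (Present) and 10.5 (Absent) in *G9a*ΔHep liver, where the log2 fold change was -0.35 with an SE of 1.34, and 1446326_at was Present on 1 array. *Col1a1* had signals of 79.6 and 81.9 in WT and of 150 and 93.0 in *G9a*ΔHep liver, all under the 95% quantile of Absent signals. The groups did not overlap, and the log2 fold change was 0.55 (SE 0.40, adjusted p = 0.701). The second WT array was called Marginal, and the other *Col1a1* probe set, 1423669_at, was Absent on all 4 arrays.

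The remaining tested fibrillar genes were *Col2a1*, *Col5a3* and *Col27a1*. *Col2a1*, the main collagen of cartilage, had signals of 106 and 126 (both Present) on the WT arrays against 69.4 and 17.1 (both Absent) on the *G9a*ΔHep arrays. It was the 1 tested collagen that was lower without overlap. Its log2 fold change was -1.75 (SE 0.74, adjusted p = 0.511), between -0.74 without the second *G9a*ΔHep array and -2.76 without the first, and all 4 signals lay under the quantile of Absent signals given above. Where a group was called Absent, its level was not established and the fold change is that of the signals as deposited. Of 8 markers of skeletal muscle and cartilage, *Sox9* was Present on all 4 arrays (log2 fold change 0.71, adjusted p = 0.668), and the other 7, *Ckm*, *Myh4*, *Acta1*, *Tnnt3*, *Acan*, *Matn1* and *Comp*, were Present on fewer than 2.

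*Col5a3*, another type V chain, had 377 and 394 in WT against 416 and 460 in *G9a*ΔHep liver. The log2 fold change was 0.18 (SE 0.19, adjusted p = 0.781), and the groups were close together and did not overlap. Its second probe set, 1425984_at, was Absent on all 4 arrays. *Col27a1* had 542 (Absent) and 503 (Marginal) in WT against 360 and 752 (both Present) in *G9a*ΔHep liver. Here the *G9a*ΔHep arrays lay on either side of the WT arrays, and the log2 fold change was -0.01 (SE 0.35, adjusted p = 0.996). A second probe set, 1429549_at, gave 0.11.

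Across the 7 tested fibrillar collagens the median log2 fold change was 0.55, against 0.02 over all 10350 genes, and without *Col5a2* it was 0.37. In this group 5 genes were higher without overlap, namely *Col1a1*, *Col1a2*, *Col3a1*, *Col5a2* and *Col5a3*, and 1, *Col2a1*, was lower. Of all tested genes, 22.3% were higher and 19.3% lower without overlap.

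**Figure D3:**
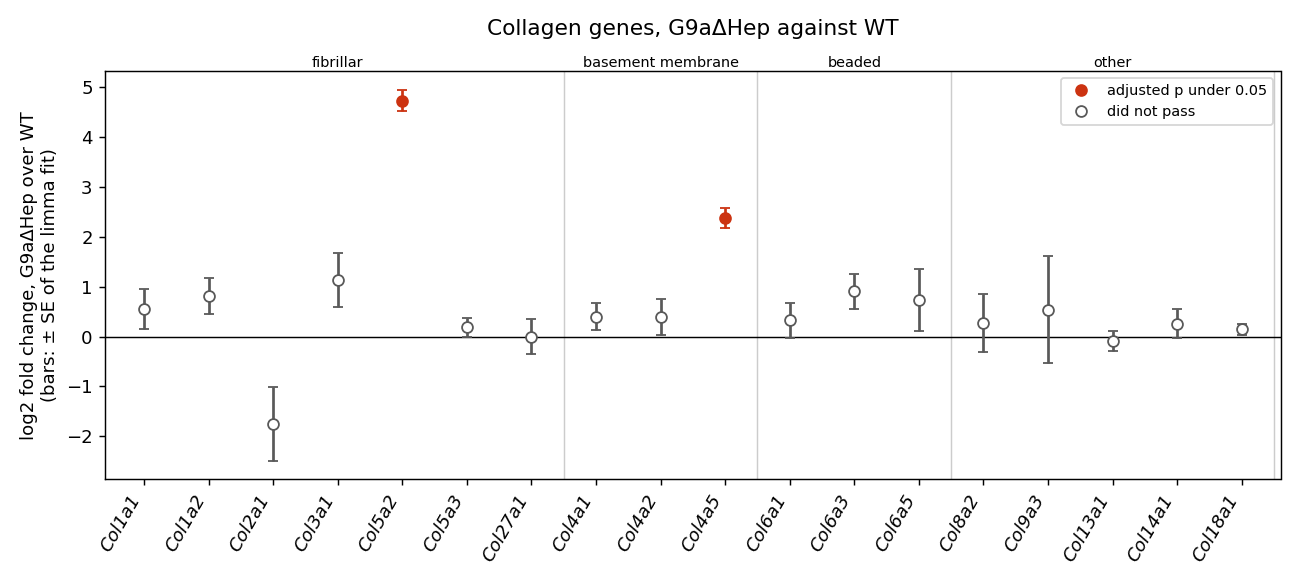
Log2 fold change (*G9a*ΔHep over WT, bars ± SE of the limma fit) of the 18 tested collagen genes by collagen group. *Col5a2* at 4.73 and *Col4a5* at 2.37, drawn filled, passed an adjusted p of 0.05, and the value of *Col2a1* at -1.75 has a wide error of 0.74.

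Among the basement membrane collagens, *Col4a5* encodes a chain that is best known from the filter of the kidney, where its loss causes Alport syndrome. At the probe set 1425476_at its signals were 134 and 142 on the WT arrays against 695 and 735 on the *G9a*ΔHep arrays. Both *G9a*ΔHep arrays were far above WT and close to each other. Both WT signals were called Present but lay under the quantile of Absent signals given above, whereas both *G9a*ΔHep signals lay above it. The WT level, and with it the size of the fold change, is therefore uncertain. The means were 138 ± 5.55 for WT and 715 ± 28.7 for *G9a*ΔHep liver (SD, n = 2 each), and the log2 fold change was 2.37 (SE 0.20, adjusted p = 0.0262 from limma).

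The other *Col4a5* probe set, 1425475_at, gave a smaller difference. Its signals were 105 (Present) and 105 (Absent) in WT and 157 and 152 (both Present) in *G9a*ΔHep liver, again without overlap. All of these signals lay under the quantile of Absent signals, so that the difference at this probe set is uncertain. The log2 fold change was 0.56 (SE 0.31, adjusted p = 0.627), so that the call on *Col4a5* rested on 1 of its 2 probe sets. When 1 array was left out, *Col4a5* passed only without the second *G9a*ΔHep array. The adjusted p was 0.0501 without the first *G9a*ΔHep array, 0.117 without the first WT array and 0.0898 without the second, with log2 fold changes of 2.33 to 2.41 in these fits.

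*Col4a5* lies at chrX:141475370-141689236 and is preceded at 1274 bases by *Col4a6*, at chrX:141165403-141474095, on the opposite strand. Their start sites in the promoter table are 1343 bases apart. *Col4a6* was Absent on all 4 arrays at both of its probe sets.

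*Col4a1* and *Col4a2* encode the most widespread type IV chains, which are built into the same molecules, and their genes also lie head to head, on chromosome 8. *Col4a1* had signals of 472 and 534 on the WT arrays against 851 and 515 on the *G9a*ΔHep arrays. *Col4a2* had 278 and 393 against 606 and 313. For both genes the first *G9a*ΔHep array was the highest and the second lay between the WT arrays. Both log2 fold changes were 0.40, with an SE of 0.27 and an adjusted p of 0.680 for *Col4a1* and an SE of 0.36 and an adjusted p of 0.752 for *Col4a2*. Another *Col4a1* probe set, 1426348_at, was Absent on all 4 arrays. With *Col4a5* taken at 1425476_at, its change exceeded that of *Col4a1* by 1.97 on the log2 scale. At its other probe set, 1425475_at, the log2 fold change of *Col4a5* was only 0.56. The exact two-sided permutation test of the ratio per array, with 1425476_at, again gave the smallest p possible, 0.333.

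**Figure D4:**
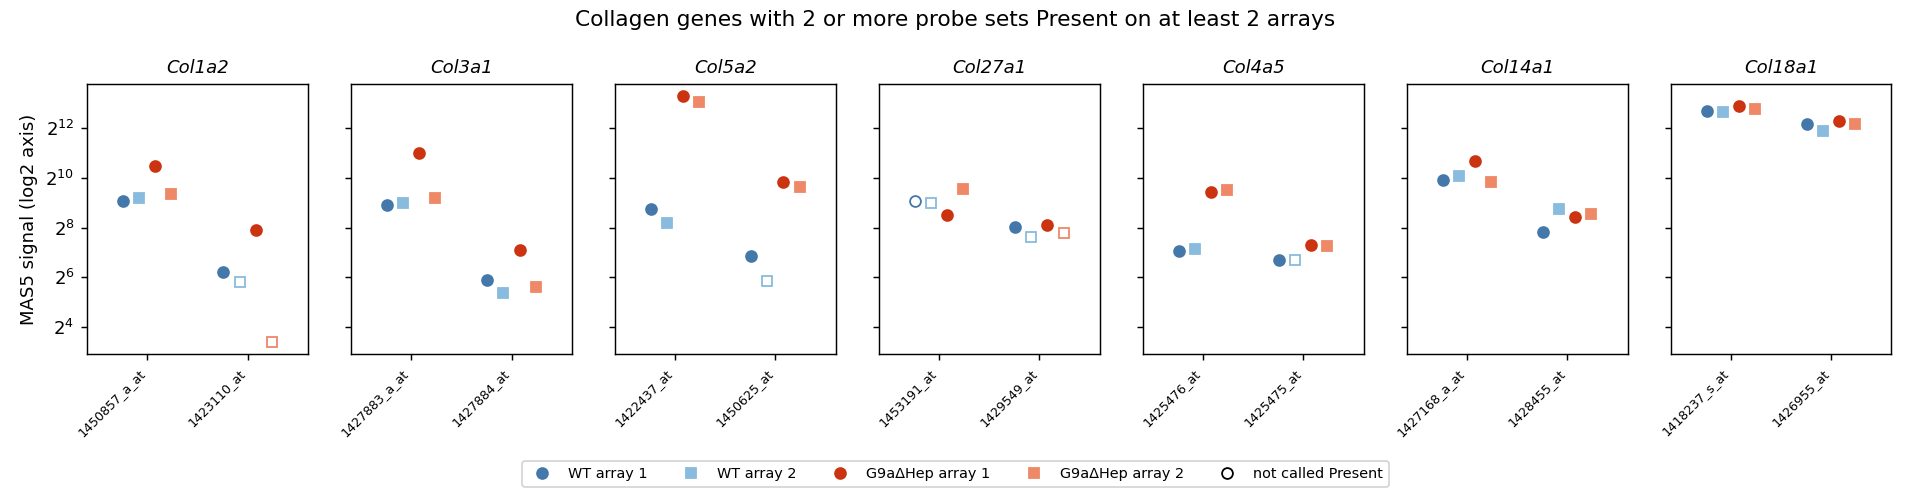
MAS5 signal (log2 axis) on each array for the 7 tested collagen genes with more than 1 probe set Present on at least 2 arrays, open symbols not being Present. Both *Col5a2* probe sets separate the groups widely, whereas for *Col4a5* the separation is wide at 1425476_at (134 and 142 against 695 and 735) and small at 1425475_at (105 and 105 against 157 and 152).

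The beaded collagens are built from chains of type VI collagen, of which *Col6a3* encodes the longest of the classical ones. *Col6a3* had signals of 267 and 301 on the WT arrays against 753 and 374 on the *G9a*ΔHep arrays. Both *G9a*ΔHep arrays were above WT, the first by far more. The log2 fold change was 0.90 (SE 0.35), and its unadjusted limma p of 0.0405 came to 0.479 after adjustment. Leaving out the second *G9a*ΔHep array gave 1.41, and leaving out the first gave 0.40.

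*Col6a1*, which encodes a partner chain, had 139 and 222 in WT against 264 and 184 in *G9a*ΔHep liver. The groups overlapped, and the log2 fold change was 0.32 (SE 0.35, adjusted p = 0.794). *Col6a5* had 27.4 and 37.5 (both Absent) in WT against 64.8 and 44.2 (both Present) in *G9a*ΔHep liver. The groups did not overlap, and the log2 fold change was 0.74 (SE 0.62, adjusted p = 0.735), with 0.47 without the first *G9a*ΔHep array. As for *Col2a1*, 1 group was called Absent throughout, and all of its signals were among those where Absent calls are common. The median log2 fold change of the 3 beaded collagens was 0.74, which is the value of *Col6a5*. That gene was tested only through its Present calls in *G9a*ΔHep liver. Among beaded collagens Present on all 4 arrays the median was 0.61.

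Of the other collagens, *Col18a1* encodes the type XVIII collagen of liver basement membranes, from which the fragment endostatin is cut. Its signals were 6594 and 6459 on the WT arrays against 7547 and 6929 on the *G9a*ΔHep arrays. The *G9a*ΔHep arrays were slightly above WT without overlap, and the log2 fold change was 0.15 (SE 0.11, adjusted p = 0.702). The probe set, 1418237_s_at, carries a suffix for probes that can match more than 1 transcript. A second one without it, 1426955_at, gave 4568 and 3825 against 4981 and 4586, a log2 fold change of 0.19 and also no overlap.

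*Col14a1*, a collagen that binds to the surface of fibrils, had signals of 962 and 1073 in WT and of 1635 and 907 in *G9a*ΔHep liver. The second *G9a*ΔHep array was the lowest of the 4 and the first the highest. The log2 fold change was 0.26 (SE 0.29, adjusted p = 0.799), and without the first *G9a*ΔHep array it came to -0.16. A second probe set, 1428455_at, gave 0.20, and 1453931_at was Absent on all 4 arrays.

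*Col8a2*, a short-chain network collagen, had 35.5 (Absent) and 58.5 in WT against 66.3 and 45.2 in *G9a*ΔHep liver, and its log2 fold change was 0.27 (SE 0.58, adjusted p = 0.913). *Col9a3*, known from cartilage, had 29.2 (Present) and 10.4 (Absent) in WT against 16.7 (Absent) and 38.2 (Present) in *G9a*ΔHep liver. Its log2 fold change was 0.54 (SE 1.08, adjusted p = 0.903), at a probe set, 1420280_x_at, whose suffix marks probes that may bind other transcripts. Its other probe sets, 1460693_a_at and 1460734_at, were Absent on all 4 arrays. The groups overlapped for both genes.

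*Col13a1*, a collagen that spans the cell membrane, had 358 and 398 in WT, both called Absent, against 330 and 378 in *G9a*ΔHep liver, both called Present. The signals overlapped although the calls did not, and the log2 fold change was -0.10 (SE 0.20, adjusted p = 0.907). Over the 5 other collagens tested, the median log2 fold change was 0.26.

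The 24 collagen genes that were not tested were *Col5a1*, *Col11a1*, *Col11a2* and *Col24a1* of the fibrillar group, *Col4a3*, *Col4a4* and *Col4a6* of the basement membrane group, *Col6a2* and *Col6a4* of the beaded group, and *Col7a1*, *Col8a1*, *Col9a1*, *Col9a2*, *Col10a1*, *Col12a1*, *Col15a1*, *Col16a1*, *Col17a1*, *Col19a1*, *Col20a1*, *Col22a1*, *Col23a1*, *Col25a1* and *Col26a1* of the others. Of these, 19 had no Present call at any probe set, and the other 5, *Col4a3*, *Col5a1*, *Col7a1*, *Col9a1* and *Col12a1*, had probe sets with at most 1 Present call. Among the genes not detected by these calls were therefore *Col5a1*, apart from 1 call on the first *G9a*ΔHep array, and *Col6a2*. Their chains are known partners of those of *Col5a2* and *Col6a1*, in that order. At its brightest probe set *Col5a1* had signals of 179 and 237 in WT against 210 and 207 in *G9a*ΔHep liver. *Col6a2* had 180 and 272 against 299 and 134, so that a lack of either RNA was not established. Counted over all 82 collagen probe sets, 14 were Present on all 4 arrays, 25 on at least 2 and 49 were Absent on all 4.

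The tested collagens were also compared array by array. Of the 18 tested genes, 12 had their highest signal on the first *G9a*ΔHep array, where 29.9% of all tested genes had theirs. A further 4 (*Col4a5*, *Col5a3*, *Col9a3* and *Col27a1*) were highest on the second *G9a*ΔHep array, 2 (*Col2a1* and *Col13a1*) on the second WT array and 0 on the first. Against the mean of the WT arrays, the median log2 difference of the 18 genes was 0.72 on the first and 0.22 on the second *G9a*ΔHep array, compared with 0.03 and 0.02 over all tested genes. Leaving out *Col5a2* and *Col4a5*, the remaining 16 had medians of 0.63 and 0.15.

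By group, these medians (the first array, then the second) were 0.90 and 0.24 for fibrillar, 0.88 and 0.04 for basement membrane, 1.02 and 0.40 for beaded and 0.21 and 0.00 for other collagens. The 0.90 was the value of *Col1a1* and the 1.02 that of *Col6a5*. For the genes that passed, both arrays were high, with 4.85 and 4.61 for *Col5a2* and 2.33 and 2.41 for *Col4a5*. In all, 15 of the 18 log2 fold changes were above 0, beside 5528 of the 10350 tested genes. The median of the 18 was 0.40 against 0.02 over all tested genes. Without overlap of the arrays 9 collagens were higher and 1 was lower, beside the 22.3% and 19.3% of all tested genes. Without the second *G9a*ΔHep array 14 collagens were higher in this sense, beside 39.6% of all tested genes, since fewer arrays overlap less often. The 9 were *Col1a1*, *Col1a2*, *Col3a1*, *Col5a2*, *Col5a3*, *Col4a5*, *Col6a3*, *Col6a5* and *Col18a1*. Of these, *Col6a5* was tested only through Present calls on the *G9a*ΔHep arrays, and *Col2a1*, the lower gene, only through those on the WT arrays. Among genes Present on all 4 arrays, 7 of 11 collagens were higher without overlap, beside 21.3% of all such genes.

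**Figure D5:**
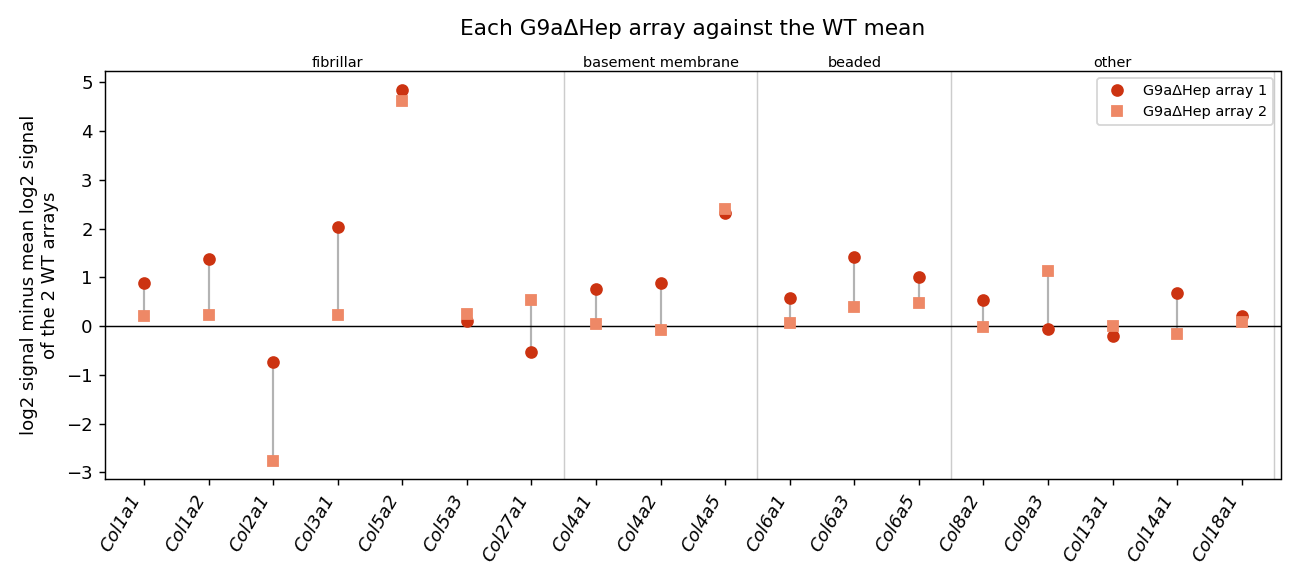
Log2 signal of each *G9a*ΔHep array minus the mean log2 signal of the 2 WT arrays for the 18 tested collagen genes, with a grey line joining the arrays of a gene. The arrays nearly coincide for *Col5a2* (4.85 and 4.61) and *Col4a5* (2.33 and 2.41), whereas for *Col3a1* they lie at 2.03 and 0.23.

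Markers of other liver cell types also varied over the arrays. Of 14 markers of stellate cells and myofibroblasts 10 were tested, and 9 of the 10 were highest on the first *G9a*ΔHep array. Their summed signal was 10823 and 12706 on the WT arrays against 17487 and 11315 on the *G9a*ΔHep arrays, with median log2 differences from WT of 0.52 on the first *G9a*ΔHep array and 0.05 on the second. All 10 log2 fold changes were above 0, at a median of 0.33, beside 5528 of the 10350 tested genes above 0. Of the 10 markers, 0 passed limma's adjusted threshold, with 1 at an unadjusted p under 0.05, beside 10% of all tested genes in either direction. That gene was *Acta2*, an actin typical of myofibroblasts, with 201 and 232 in WT against 531 and 405 in *G9a*ΔHep liver (log2 fold change 1.10, adjusted p = 0.198), Absent on the first WT array and Marginal on the second *G9a*ΔHep array. The next by p were *Hand2* (0.52) and *Vim* (0.58), and the markers *Des*, *Tagln*, *Lhx2* and *Ngfr* were Present on fewer than 2 arrays.

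Of 10 macrophage markers 9 were tested and all 9 were highest on the first *G9a*ΔHep array. Their summed signal was 27872 and 41843 in WT and 61948 and 39973 in *G9a*ΔHep liver, at a median log2 fold change of 0.46. Of the 9, 0 passed limma's adjusted threshold, with 1 at an unadjusted p under 0.05, beside 10% of all tested genes. The smallest p were those of *Lyz2* (0.88, adjusted p = 0.480), *Cx3cr1* (1.77) and *Csf1r* (0.60). The part of either cell type in the collagen values was not tested.

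For sinusoidal endothelium, of which 9 of 10 markers were tested, the summed signal was 19564 and 15472 in WT and 17836 and 17232 in *G9a*ΔHep liver, with 2 of the 9 highest on the first *G9a*ΔHep array. Their median was 0.05, and the smallest p were those of *Lyve1* (-1.0, adjusted p = 0.320), *Ptprb* (0.21) and *Oit3* (0.21). The hepatocyte list had a median of -0.08 and 4 of its 10 genes highest on the first *G9a*ΔHep array, with *Cps1* (-0.23, adjusted p = 0.494), *Asgr1* (-0.22) and *Alb* (-0.12) first by p. In each of these 2 lists 0 genes passed limma's adjusted threshold. Each had 1 gene at an unadjusted p under 0.05, beside 10% of all tested genes in either direction. Of 8 portal fibroblast markers 1 was tested, *Entpd2* (0.19), and of 8 cholangiocyte markers 1, *Sox9* (0.71), which was also the 1 tested of 8 muscle and cartilage markers.

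Collagen chains are modified, folded and trimmed by a dedicated set of enzymes and chaperones before they assemble. Of 32 such maturation genes 18 were tested, 0 passed limma's adjusted threshold and the median log2 fold change was -0.07. At an unadjusted p under 0.05 there were 3, beside the 10% of all tested genes. *P4hb*, a subunit of the prolyl hydroxylase that stabilises the helix, had 30842 and 31178 in WT against 25001 and 25223 in *G9a*ΔHep liver (log2 fold change -0.30, adjusted p = 0.337). *P4ha2*, a catalytic subunit of that enzyme, had 254 and 284 against 187 and 155 (-0.66, adjusted p = 0.474). *Adamts3*, a protease that removes the end of procollagen, had 36.1 and 41.3 against 99.7 and 95.6 (1.34, adjusted p = 0.430), with an Absent call on 1 array of each group. The groups did not overlap for any of these 3, which were named for their small p. Of the 18 tested maturation genes, 3 were higher and 3 lower without overlap, beside 22.3% and 19.3% of all tested genes.

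Of 10 collagen receptors 5 were tested and 0 passed, and the median was 0.23. At an unadjusted limma p under 0.05 there were 0, beside 10% of all tested genes. *Ddr1*, a receptor kinase that binds collagen, had 373 and 339 in WT against 1257 and 416 in *G9a*ΔHep liver (log2 fold change 1.02, adjusted p = 0.555), high on the first *G9a*ΔHep array as *Col3a1* was. *Itgb1* (-0.18) and *Ddr2* (-0.41) followed by p. Of 14 matrix proteins that bind to fibrils 9 were tested and 0 passed, none at an unadjusted p under 0.05 either. Their median was 0.26, with median differences of 0.70 on the first and 0.02 on the second *G9a*ΔHep array, and 6 of the 9 were highest on the first. The smallest p were those of *Lum* (0.26), *Ogn* (0.73) and *Sparc* (0.39), which encode matrix proteins known to act in fibril assembly.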

How the data were processed

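Total RNA of non-tumorous liver was hybridised to Affymetrix GeneChip mouse genome arrays, and samples were assigned to WT and *G9a*ΔHep from the submitters' labels. Per the submitters' processing notes the authors used MAS5, and its version was not given in the sources used here. In the authors' files the deposited intensity is linear, background-corrected and scaled per array (trimmed mean 500 on each), so that shifts of the whole transcriptome are not visible. The deposited detection p-value gave the Present, Marginal or Absent call. A series-wide table of deposited signals differed by at most 5e-06 in relative terms.

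Of 45101 probe sets 64 were controls. In the array annotation 34945 named 1 gene, 932 several and 9160 none. Only probe sets with 1 gene were used. Symbols of 34754 probe sets were checked by Entrez identifier against RefSeq genes of GRCm38.p6, and 0 changed. Each gene was measured at its brightest probe set by mean log2 signal, out of its probe sets Present on 2 or more arrays, which left 10350 genes. Log2 signals, with no pseudocount, were compared with limma 3.58.1 in R 4.3.3 (lmFit, eBayes with a mean-variance trend, 2 residual and 4.02 prior degrees of freedom) and Benjamini-Hochberg adjustment over all 10350 genes, with a threshold of 0.05. With 2 arrays per group the number of arrays limits the precision. The labels name neither batches nor pairs. Alternatives were other variance models, detection filters, probe set choices, normalisations and a pseudocount of 50, the methods' t-test (Student's, on log2 signals), the series-wide table and leaving out each array. The limma script was tested on simulated data. Summaries and drawings used Python 3.11.15 with numpy 2.4.6, pandas 2.3.3, scipy 1.17.1 and matplotlib 3.10.9.

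The collagen genes, the pathway lists (collagen maturation, receptors and fibril partners) and the cell type markers (stellate, portal fibroblast, sinusoidal endothelium, cholangiocyte, macrophage, hepatocyte, muscle and cartilage) were chosen with earlier results of these data known. All tested collagens were named, all untested ones in a group, and of each list the members past the threshold or, where none passed, the 3 of lowest p, with undetected stellate, muscle and cartilage markers named as such. Beside *Col5a2*, the nearest 2 genes on each side were named, and *Nabp1* and *Tmeff2* as the ends of the range after their values were seen. No gene lists were tested as sets.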

Additional observations from a re-analysis of the deposited data

How the results depend on the processing

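The 2 collagens that passed became 1 with the mean of a gene's probe sets, 0 with the methods' t-test and 0 without a variance trend, where 2 were higher at an unadjusted p under 0.05 in both fits, and 1 to 3 when 1 array was left out. *Col5a2* passed in 12 of 14 alternatives; its log2 fold change of 4.73 had an adjusted p of 0.491 in the t-test and of 0.114 without a trend. *Col4a5* passed in 7 of 14 (adjusted p 0.0208 to 0.627), and 1.46 from the mean of its probe sets did not pass. The 9 collagens higher without overlap became 16 of 42 with no detection filter (20.4% of all genes there) and 10 to 14 when 1 array was left out (36.2% to 39.6% of all genes), and were 7 of 11 with Present calls on all 4 arrays and 8 with the mean of probe sets, median centring or quantile normalisation. The sign turned for *Col1a2* (-0.35) and *Col27a1* (0.11) at their second probe sets, and for *Col27a1* with log2(signal + 50) (0.0027) and the mean of probe sets (0.053). Leaving out 1 array gave -0.19 to 0.00013 for *Col13a1*, -0.16 to 0.69 for *Col14a1*, -0.54 to 0.53 for *Col27a1*, -0.075 to 0.88 for *Col4a2*, -0.094 to 0.62 for *Col8a2*, -0.21 to 1.29 for *Col9a3* and -0.015 to 0.66 for *Col6a1*. These fits kept the tested genes and assumed that a lone array varies like the other group. No paired analysis was possible because the labels carry no replicate numbers. Centring arrays on their median moved the median of all genes from 0.02 to -0.04. No lower collagen passed in any of the alternatives, with 0 or 1 lower at an unadjusted p under 0.05.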
